A study of Homo sapiens and Mus musculus with 6 samples.

Results

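Promoter Capture Hi-C (CHi-C) calls were examined at the promoters of 10 Sox genes of embryonic patterning, Sox1, Sox5, Sox6, Sox8, Sox9, Sox10, Sox11, Sox14, Sox17 and Sox21. A call was taken whenever the bait or the other end of the interaction carried 1 of these symbols. This gave 93 of the 101841 calls listed for mouse embryonic stem cells (mESCs) and 15 of the 92929 calls listed for GM12878. The mESCs were of strain 129S4/SvJae and were represented by 2 CHi-C replicates and 1 Hi-C library, all untreated apart from fixation. GM12878 is a human B-lymphoblastoid cell line and was represented by 3 CHi-C replicates, also untreated. Each cell type stands for a single cell line, and the calls of its replicates were pooled by the authors before deposition. There was therefore no spread between replicates and no test between conditions, and expression, by which the labelled cell types could be checked, was not measured. Intervals below are Wilson 95% intervals or, for medians, 95% intervals from the order statistics, and they cover counting error only.

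CHi-C joins pieces of DNA that lie close together in the fixed nucleus and is enriched for HindIII fragments with annotated promoters, here called baited fragments or baits. A few baited fragments carry only the label uce, whose meaning is not given, and were counted with the promoters. The read count of a call is the mean over replicates weighted by library size and rounded, and the CHiCAGO score rises as the count exceeds the background expected at that distance. All calls listed here have a score of at least 5. Distances were measured between fragment midpoints.

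Sox genes encode transcription factors that bind DNA through an HMG box and are sorted into subgroups by the similarity of that domain. Sox1 (SoxB1) maintains neural progenitors, whereas Sox14 and Sox21 (SoxB2) act in neuronal differentiation and subtype choice. Sox11 (SoxC) acts in differentiating neurons. Sox5 and Sox6 (SoxD) act in cartilage and in several neuronal and blood lineages. Sox8, Sox9 and Sox10 (SoxE) act in the neural crest, the gonad, cartilage and glia, and Sox17 (SoxF) specifies endoderm. In embryonic stem cells many such lineage genes are held silent, often with Polycomb proteins at CpG-rich promoters. No chromatin mark was measured in these data.

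The 6 promoter sequences are shown because they belong to the Sox14, Sox21 and Sox17 promoters and to the developmental promoter with which each gave its highest-scoring call of that kind. Each holds the 250 bases before the annotated start on the gene's own strand, with every CG dinucleotide in capitals. The sequences were read from the mouse mm9 genome. Developmental genes are those of a list of lineage transcription factor and signal families, among them Hox, Pax, Fox, Tbx, Zic, Gata, Lhx, Wnt, Fgf and Bmp, and the Sox genes themselves.
Sox14, chr9:99776664-99776913, minus strand: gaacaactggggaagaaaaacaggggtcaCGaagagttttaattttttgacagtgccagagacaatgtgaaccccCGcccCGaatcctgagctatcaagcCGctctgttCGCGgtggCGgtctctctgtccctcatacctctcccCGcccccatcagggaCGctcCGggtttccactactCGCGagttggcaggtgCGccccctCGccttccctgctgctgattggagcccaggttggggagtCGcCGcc
Foxl2, chr9:98855776-98856025, plus strand: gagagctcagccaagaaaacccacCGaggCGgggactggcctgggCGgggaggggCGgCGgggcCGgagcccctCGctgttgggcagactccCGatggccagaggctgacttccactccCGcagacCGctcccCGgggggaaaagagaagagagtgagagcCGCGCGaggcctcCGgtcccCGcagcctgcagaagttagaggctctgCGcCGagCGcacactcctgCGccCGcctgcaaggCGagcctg
Sox21, chr14:118636253-118636502, minus strand: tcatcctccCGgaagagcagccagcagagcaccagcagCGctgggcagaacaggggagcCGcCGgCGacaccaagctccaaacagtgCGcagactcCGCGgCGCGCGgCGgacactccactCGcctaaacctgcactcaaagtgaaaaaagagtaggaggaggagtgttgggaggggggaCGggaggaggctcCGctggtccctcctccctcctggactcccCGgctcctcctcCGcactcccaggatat
Zic2, chr14:122874354-122874603, plus strand: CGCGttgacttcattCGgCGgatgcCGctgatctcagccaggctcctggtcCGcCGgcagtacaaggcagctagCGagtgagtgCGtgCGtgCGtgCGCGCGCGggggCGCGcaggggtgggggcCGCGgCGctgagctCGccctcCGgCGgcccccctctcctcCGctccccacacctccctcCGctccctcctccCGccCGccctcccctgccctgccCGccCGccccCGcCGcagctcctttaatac
Sox17, chr1:4486495-4486744, minus strand: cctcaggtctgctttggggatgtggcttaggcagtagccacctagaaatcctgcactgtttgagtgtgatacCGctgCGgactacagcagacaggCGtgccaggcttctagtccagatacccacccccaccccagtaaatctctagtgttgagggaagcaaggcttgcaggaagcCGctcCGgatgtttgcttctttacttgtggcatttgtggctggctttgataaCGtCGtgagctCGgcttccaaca
Tcfap2b, chr1:19198745-19198994, plus strand: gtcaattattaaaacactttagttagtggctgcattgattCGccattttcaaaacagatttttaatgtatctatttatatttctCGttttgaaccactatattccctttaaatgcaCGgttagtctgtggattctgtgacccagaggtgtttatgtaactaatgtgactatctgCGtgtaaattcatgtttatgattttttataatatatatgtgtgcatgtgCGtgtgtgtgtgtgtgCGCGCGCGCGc
The stretch before Sox14 holds 16 CG dinucleotides and that before Foxl2 holds 22. The Sox21 stretch has 17 and the Zic2 stretch 31, the most of the 6. The Sox17 and Tcfap2b stretches hold 8 and 10.

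In mESCs, 7 of the 10 genes had a call. Sox21 had 24 calls, Sox6 18, Sox17 17, Sox14 15, Sox8 13, Sox10 4 and Sox9 2. The 93 calls joined 79 distinct fragment pairs, since a pair of promoters can be called from both ends. The 2 calls of such a Sox pair had the same read count, so they are not separate support. Over all 17157 baited fragments in the list the median was 4 calls (interquartile range 2 to 10), counted at either end. Of these fragments, 7.54% had as many calls as Sox21 or more, and 80.1% had as many as Sox9 or more. The Sox promoters thus ranged from the upper tail of the list to below its median. For 282 baited fragments with other developmental genes the median was 15 calls (interquartile range 6 to 32). It was also 15 for the 7 Sox fragments (8.5 to 17.5). Sox1, Sox5 and Sox11 had no call under their symbols. The nearest listed fragment lay 157 kb from the closest annotated Sox5 start and 172 kb from the Sox11 start, and Sox1 was not in the annotation used. Whether these 3 promoters were captured was not tested.

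**Figure D1:**
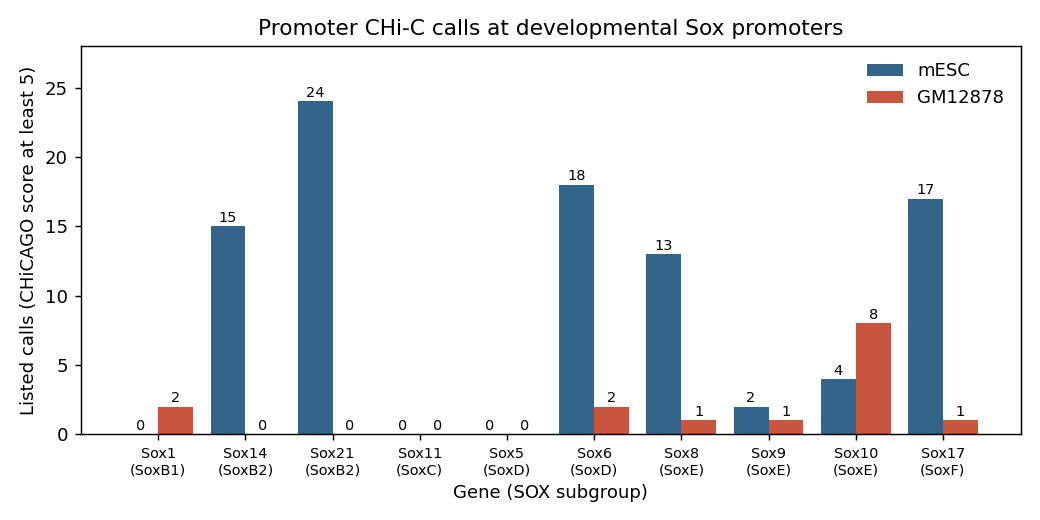
Number of listed CHi-C calls (y axis) at each of the 10 Sox genes (x axis, with subgroup), in mESCs (blue) and GM12878 (red), 1 pooled set of calls per cell type and hence no error bars. Sox21 has the most calls in mESCs (24), SOX10 the most in GM12878 (8), and Sox5 and Sox11 have 0 in both.

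The Sox14 promoter, on the fragment chr9:99775372-99777449, gave the highest score of any Sox call, 51.3, with the promoter of Foxl2, a forkhead transcription factor gene of the ovary and eyelid. The pair lay 919 kb apart and was supported by 28 reads. Called from the Foxl2 end it scored 50.9. Beside the baited Foxl2 fragment, a further 5 unbaited fragments on its flanks were called with Sox14 at scores of 6.18 to 17.02 and on 5 to 10 reads, so the contacted region extended over 36.8 kb. The highest of the 5, 17.02 on 10 reads, overlapped an exon of Foxl2os, the gene antisense to Foxl2. Hi-C placed 23 read pairs between the 25-kb bins of Sox14 and Foxl2, where 1.38 were expected, and 4 of the 6 fragments fell in that bin pair.

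Sox14 also met developmental promoters much farther along chromosome 9. The promoter of Tbx18, a T-box gene of the epicardium and somites, was called over 12.2 Mb on 6 reads with scores of 15.46 and 12.94 from its 2 ends. That of Zic1, a zinc-finger gene of the dorsal neural tube, was called over 8.52 Mb on 5 reads with scores of 10.48 and 11.13. These counts are small, and neither pair fell in a Hi-C bin pair that passed the false discovery rate (FDR) of 0.05. The remaining Sox14 promoter partner was Dzip1l, a ciliary gene 246 kb away, called from its own end with a score of 7.67 on 8 reads. Near the promoter, 2 unbaited fragments 4.71 kb and 7.76 kb downstream were called on 92 and 59 reads with scores of 9.6 and 9.08. The only fragment called upstream of Sox14 lay 521 kb away, near Il20rb.

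The partners of Sox14 were in part partners of each other. Tbx18 was called with Foxl2 over 11.2 Mb (6 reads, score 14.68) and with Zic1 over 3.63 Mb (11 reads, score 28.78), and Foxl2 was called with Dzip1l (9 reads, score 13.6). That made 3 of the 6 possible pairs. Such pairs were 7 of 15 for Sox8, 1 of 1 for Sox10 and 3 of 21 for Sox17. They were 0 of 21 for Sox6 and 0 of 10 for Sox21. The share over all baited fragments was not computed, so no trait of the Sox promoters can be read from these counts. Eomes, a T-box gene of mesendoderm, was called with Tbx18, Zic1 and Foxl2 but not with Sox14, which lay 18.6 Mb from it. Zic1 and Foxl2, both partners of Sox14, were not called with each other over 7.60 Mb.

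Sox21, on chr14:118631397-118638771, was called with the most fragments, 22 in 9 regions, where fragments no more than 20 kb apart form a region. Of these fragments, 20 lay upstream of the gene. The highest score, 18.73, joined Sox21 to a baited fragment labelled uce 201 kb upstream, on 24 reads. From the Sox21 end the same pair scored 15.58. In the next region upstream, an unbaited intergenic fragment at 240 kb was called on 16 reads with a score of 14.15. Hi-C had 23 read pairs against 6.56 expected for the first of these and 19 against 3.94 for the second. Farther out, 6 fragments between 567 and 619 kb upstream lay within or at a start of Cldn10, a tight-junction gene, with scores of 5.36 to 7.19 on 6 or 7 reads. Scores near 5 are just inside the limit of the list.

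The developmental partner of Sox21 was Zic2, a zinc-finger gene of forebrain formation, at 4.24 Mb. Its promoter fragment was called on 9 reads with scores of 17.08 and 15.96, and 3 unbaited fragments beside it were called on 4 reads each with scores of 5.47. The 4 fragments formed a region of 17.5 kb. Zic5, the neighbour of Zic2, was not called with Sox21, although 4 of the fragments called with Sox21 were also called with Zic5. None of the 5 Sox21 pairs over 1 Mb fell in a Hi-C bin pair. The other promoter partners were Abcc4, a transporter gene, Gpc6, a glypican gene, and Dnajc3, a chaperone gene, with scores of 6.95, 5.49 and 5.42 on 4 to 6 reads.

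Sox17, on chr1:4485600-4488420, was called with 12 fragments, all of them upstream. The gene is on the minus strand and near the start of the chromosome. Its 4 pairs of 14.6 to 85.7 Mb could therefore lie only upstream. The highest score, 32.32, joined Sox17 to the promoter of Tcfap2b over 14.7 Mb on 9 reads, and the same pair scored 24.87 from the other end. Tcfap2b is the older symbol of Tfap2b, an AP-2 transcription factor gene of kidney and neural crest. Its neighbour Tcfap2d, also an AP-2 gene, was called over 14.6 Mb on 4 reads with scores of 7.87 and 5.56. The adjoining Gm15825 fragment was called on 5 reads with scores of 13.12 and 11.72. All 3 pairs fell in 1 Hi-C pair of 1-Mb bins with 192 read pairs against 115 expected, and that bin pair cannot separate them. Tcfap2b in turn was called with Pou3f3, a POU-domain transcription factor gene of the nervous system, over 23.6 Mb (10 reads, score 33.1). Sox17 was not called with Pou3f3.

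The longest Sox call reached 85.7 Mb, from Sox17 to the promoter of Hjurp, a chaperone gene for centromeric histone. That fragment is listed under Hjurp but also holds an annotated start of Trpm8, and the call cannot separate the 2 genes. The call rested on 4 reads with scores of 9.33 and 9.62, and the 1-Mb bins held 178 Hi-C read pairs where 33.4 were expected. The list had 6 calls between the first 6 Mb of chromosome 1 and the stretch from 89 to 91 Mb, of which 2 were the Sox17 pair. The other calls, on 3 or 4 reads, started from Gm1992, Ugt1a1, Heatr7b1 and Hjurp. A difference between the chromosome of these cells and the reference was not tested. Closer in, Sox17 was called with 4 adjoining or nearby fragments 269 to 284 kb upstream that end at the Mrpl15 promoter, where the 2 highest unbaited scores of that region were 9.97 on 9 reads each. Its highest unbaited score, 11.42 on 8 reads, was at a start of Rgs20 523 kb away.

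Sox6, on chr7:123180134-123184895, made its strongest contact with an unbaited fragment, chr7:122359965-122362963. This intergenic fragment lay 821 kb downstream, beyond the 3′ end of the gene, whose body extends over 567 kb. It was called on 30 reads with a score of 33.26, the second highest of all Sox pairs. The 2 fragments next to it were called on 9 and 11 reads with scores of 5.09 and 7.4. Hi-C had 25 read pairs in the bin pair that holds all 3, where 3.45 were expected. The 18 Sox6 fragments formed 13 regions, and 14 of the fragments lay downstream with 4 overlapping the body of Sox6 itself. The next unbaited fragment in order of score, 1.12 Mb downstream, was called on 14 reads with a score of 13.45 and lay beside the promoter of Gm6816 (5 reads, score 6.87).

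A comparison within Sox6 shows how far score and read count part. The fragment with the most reads, 125, lay 8.71 kb away and scored 5.18. The longest call reached 6.43 Mb, into an intron of St5, on 5 reads with a score of 5.42. The highest promoter score was 16.45 on 16 reads, with 1110004F10Rik at 56.7 kb. The other Sox6 promoter partners, Gm6816, Gm17239, Gm4353, Insc, Itpripl2 and a fragment labelled uce in an intron of Sox6, scored 5.44 to 6.87. None of the 7 was a developmental gene, and each was called from the partner's end only. The bait 1110006G14Rik, 4.88 kb from the Sox6 fragment, shared 10 of the 18 Sox6 fragments, which was 58.8% of its own 17. Contacts of these neighbouring baits were therefore not independent of each other.

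**Figure D2:**
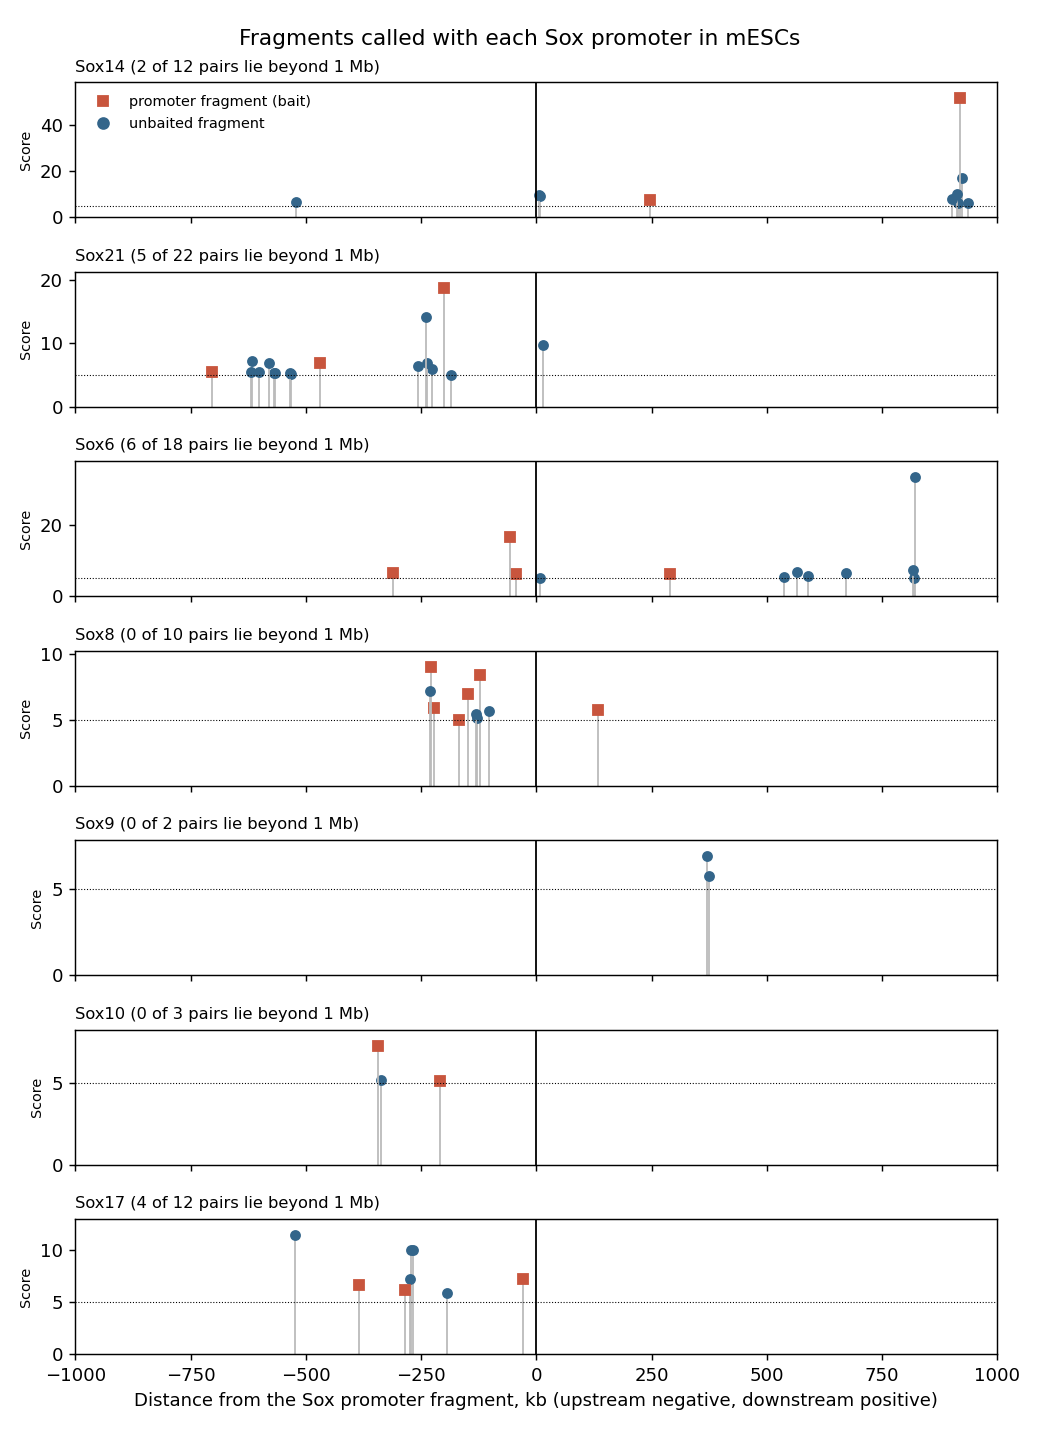
Highest CHiCAGO score of each fragment called with a Sox promoter in mESCs (y axis, a separate scale per panel) against its distance in kb from that promoter, upstream negative and downstream positive (x axis, limited to 1 Mb either side). Red squares are promoter fragments, blue circles unbaited fragments, and the dotted line is the score of 5. Sox21 and Sox17 reach upstream, Sox6 and Sox14 mostly downstream.

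The SoxE promoters had no pair beyond 375 kb, with median distances of 148 kb for Sox8, 372 kb for Sox9 and 339.9 kb for Sox10, beside 143 kb for all baited fragments. Sox8, on chr17:25703577-25708462, was called with 10 fragments, all between 103 and 231 kb away and 9 of them upstream. Its highest score was 9.03, with Metrn, a neurotrophic factor gene, on 22 reads. The other promoter partners were U6.96 (score 8.4), Gng13, a G-protein subunit gene (6.93), Fam173a (5.89), Cacna1h, a calcium channel gene (5.76), and Mslnl (5). Of the 15 possible pairs among these 6 partners, 7 were called with each other, over at most 282 kb. Tekt4, 97.5 kb away, shared 6 of the 10 Sox8 fragments. No Sox8 pair was in a Hi-C bin pair.

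Sox9 and Sox10 had few contacts. Sox9, on chr11:112642118-112653811, was called with 2 unbaited fragments 370 and 375 kb downstream, in an intron of 2610035D17Rik, on 9 and 8 reads with scores of 6.94 and 5.78. No other bait was called with either. Sox10, on chr15:78993386-78996448, was called with the promoter of Kcnj4, a potassium channel gene, at 343 kb (11 reads, scores 7.24 and 5.55), with an unbaited fragment beside it (6 reads, score 5.14) and with Mir1943 at 210.2 kb (11 reads, score 5.12). The Kcnj4 and Mir1943 fragments were each called by 9 other baits as well.

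Over the 7 genes with calls, the Sox contacts were long. The median cis distance was 533 kb (95% interval 311 to 619 kb, 93 calls). Over all baited fragments it was 143 kb, and over promoters on a list of developmental regulators without these Sox genes it was 199 kb. Of the 79 Sox pairs, 17 spanned 1 Mb or more (21.5%, 13.9 to 31.8%), beside 3.22% of the pairs of all baited fragments and 18.7% for the developmental list. The share at the Sox promoters was above that of all fragments and close to that of other developmental promoters. The 17 long pairs belonged to Sox6 (6), Sox21 (5), Sox17 (4) and Sox14 (2). No Sox pair was trans-chromosomal, 0 of 79, which allows a share of up to 3.80% (3 counts of the total, the limit used here for a count of 0), where the share in all pairs was 0.49%. No call joined 2 of the 10 genes.

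Promoter partners made up 45 of the 93 calls (48.4%, 38.5 to 58.4%), beside 53.3% for all baited fragments. Of the 31 promoter partners, 4 were on the developmental list as written (12.9%, 5.13 to 28.9%), beside 3.2% for all baited fragments and 28.2% for developmental promoters. Counting Tcfap2b and Tcfap2d, which carry older symbols, gave 6 of 31 (19.4%), beside 3.25% and 28.7%. At 1 Mb and over, 3 of the 11 promoter partners were on the list, beside 20.8% for all baited fragments and 40.3% for developmental promoters. With the older symbols it was 5 of 11, beside 21.6% and 42.1%. Of the 4 partners on the list as written, 3 were partners of Sox14, and without Sox14 the share was 1 of 27 (3.70%), near that of all fragments. Sox6, Sox8 and Sox10 had 15 promoter partners between them and none on the list.

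The 6 developmental partners belonged to 3 Sox promoters, and their distances and scores overlapped those of the other 25. All 6 pairs were called from both ends, beside 8 of the other 25 (32%, 17.2 to 51.6%) and 26.2% of the promoter pairs of all baited fragments. Both calls of a pair rest on the same read count. Calling from both ends was not separated from the score, whose median was also higher for the 6. Among 268 pairs of developmental promoters that held no such Sox gene, 81% were called from both ends. The class that matches the 25 is 1331 pairs of a developmental and another promoter, without these Sox genes. Of those 1331, 47.9% were called from both ends and 19.6% spanned at least 1 Mb, with a median score of 8.4. In distance, 5 of the 6 spanned at least 1 Mb, with a median of 10.3 Mb, beside 6 of 25 and a median of 0.284 Mb for the other partners. For the 268 pairs the share over 1 Mb was 35.4% and the median 0.128 Mb, below the values of the 6 Sox pairs. The 268 include close neighbours of 1 family, such as Zic2 and Zic5 at 0.0134 Mb. Among the 6, the Sox17 partners Tcfap2b and Tcfap2d lie 0.108 Mb apart and are not independent. The difference in distance was not tested. The median score was 16.27 for the 6 and 6.65 for the 25, while the median reads were similar, 7.5 and 7.

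**Figure D3:**
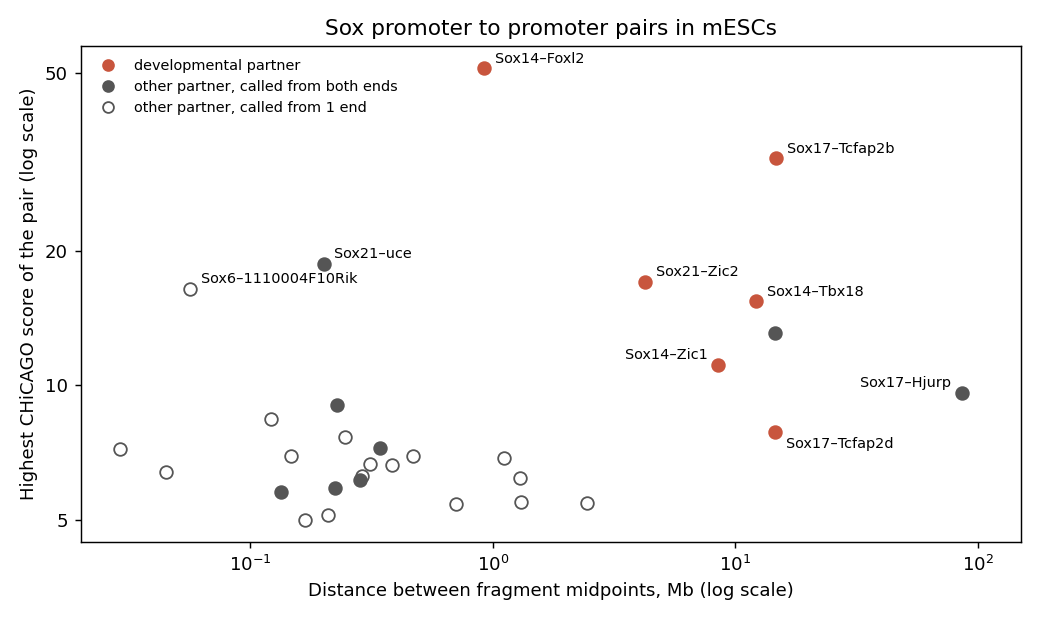
The 31 promoter pairs of the Sox promoters in mESCs by distance in Mb (x axis, log scale) and highest CHiCAGO score (y axis, log scale). Red points have a developmental partner, grey points another partner, and open points were called from 1 end only. The 6 developmental pairs lie at 0.919 to 14.7 Mb and all were called from both ends.

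**Figure D4:**
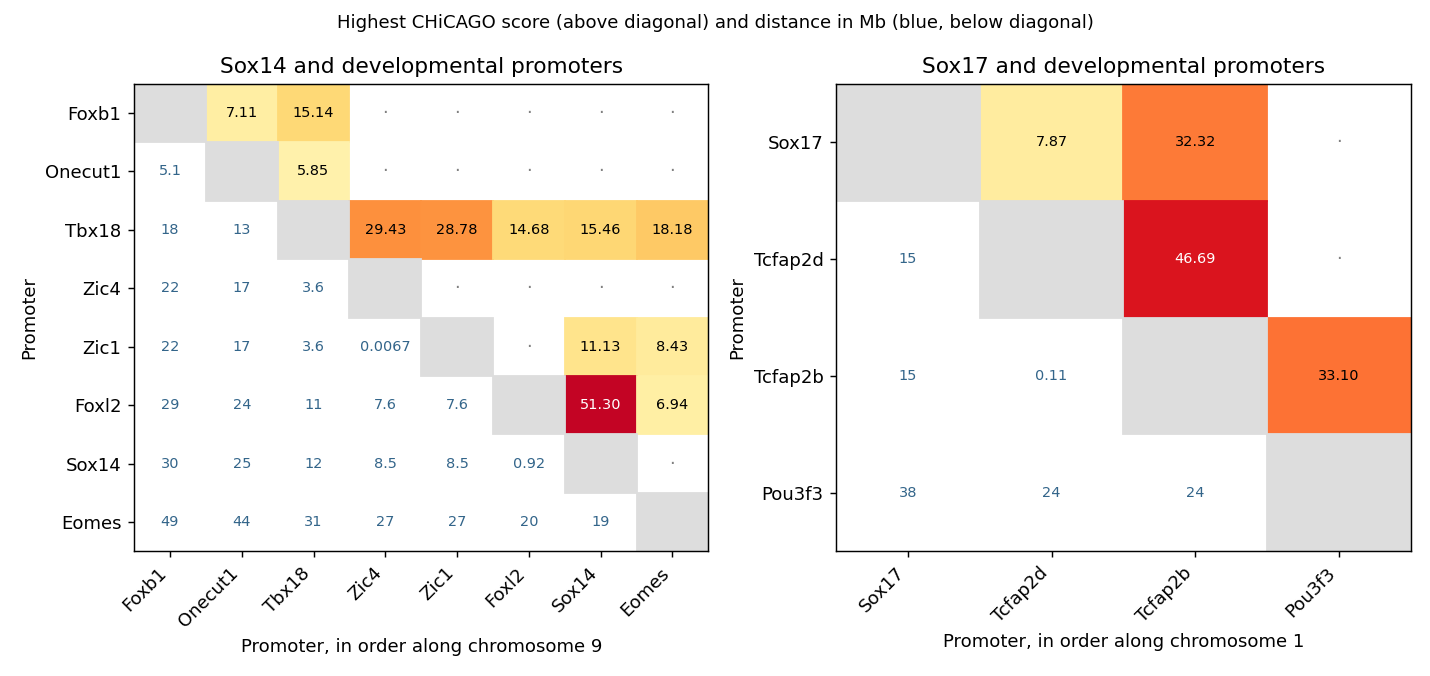
Calls among developmental promoters on chromosome 9 around Sox14 (left) and chromosome 1 around Sox17 (right), in chromosome order on both axes. Above the diagonal is the highest CHiCAGO score of a called pair (darker is higher, a dot where there was no call) and below it the distance in Mb. The promoters other than Sox14 and Sox17 were chosen because they are called with a partner of these genes, so the density of calls is not a result. Sox14 is called with 3 of its 7 companions and Sox17 with 2 of 3.

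Hi-C covered the Sox pairs unevenly. Under 1 Mb, 15 of 62 Sox pairs (24.2%, 15.2 to 36.2%) fell in a 25-kb bin pair that passed an FDR of 0.05, beside 10.1% of the pairs of all baited fragments. At 1 Mb and over, 4 of 17 Sox pairs fell in a pair of 1-Mb bins (23.5%, 9.56 to 47.3%), beside 57.4%. The long-range share of the Sox pairs was thus the lower of the 2, and all 4 pairs were those of Sox17. These 2 shares are not matched for distance. At 1 to 5 Mb, 0 of 10 Sox pairs fell in a bin pair (0 to 27.8%), beside 50.5% for all baited fragments. At 5 to 20 Mb it was 3 of 6, beside 75.6%, and over 20 Mb 1 of 1, beside 81.9%. The 15 closer pairs were 6 of Sox6, 6 of Sox14 and 3 of Sox21. With neighbouring fragments sharing a bin pair, these counts are not of independent contacts.

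The other Sox genes, Sox2, Sox3, Sox4, Sox7, Sox12, Sox13, Sox15, Sox18, Sox30 and Sry, were examined in the same way, and all except Sry had a call in mESCs. Their 37 promoter pairs held 1 developmental partner, beside 3.25% for all baited fragments. It was Gata4, a GATA factor gene of heart and endoderm, called with the SoxF gene Sox7. Sox15 held 22 of the 37. Sox2, the pluripotency gene of the family, was called with 3 unbaited fragments at up to 0.834 Mb with a highest score of 12.28. The longest mESC pair of the 10 genes spanned 1.46 Mb, at Sox30. In GM12878, 6 of the 10 had a call, and their 20 promoter pairs held 1 developmental partner, FGF11 with SOX15. SOX4 had 6 pairs there with a median distance of 1023 kb.

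In GM12878, 6 of the 10 genes had a call, SOX1, SOX6, SOX8, SOX9, SOX10 and SOX17, with 15 calls that joined 14 fragment pairs. SOX10 held 8 of the 15. Only the SOX1 and SOX17 fragments, with 3 calls, carried no other symbol. The SOX10 fragment also carried POLR2F and MIR4534, that of SOX6 C11orf58, that of SOX8 LMF1 and other symbols, and that of SOX9 SOX9-AS1, so calls there cannot be assigned to the SOX promoter alone. In mESCs each Sox fragment carried a single symbol. The 4 promoter partner fragments carried no gene of the developmental list (0 of 4), where the share was 1.2% for all baited fragments of the list. No pair reached 1 Mb, 0 of 14, which allows a share of up to 21.4% by the same limit, beside 1.63% of all pairs. Likewise none was trans-chromosomal, beside 0.26% of all pairs. The median distance was 404 kb (149 to 592 kb), beside 174 kb for all baited fragments. The median score was 6.43, beside 6.74 for all baited fragments, and the maximum was 10.88.

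SOX10 in GM12878 was called with the promoter fragment of C22orf23 and POLR2F, 36.9 kb away (18 reads, score 9.21), with snoU13 (6 reads, score 7.27) and with a fragment that carries TOMM22 and CBY1 at 681 kb (7 reads, score 5). Its 5 unbaited fragments, 530 to 628 kb away, lay in DMC1 and FAM227A, the highest with 12 reads and a score of 9.28. SOX1 was called with SNORD44 at 15.4 kb on 60 reads, with scores of 10.88 and 7.13. The remaining calls were single unbaited fragments, or 2 for SOX6, both inside the gene at 404 and 608 kb. Their scores ran from 5.19 to 6.43.

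The 2 cell types differ in species, line, bait set, sequencing depth and number of replicates, and these cannot be told apart. Sox6, Sox8, Sox9, Sox10 and Sox17 had calls in both, Sox14 and Sox21 in mESCs only and Sox1 in GM12878 only. No promoter partner was shared by symbol. However, only Sox10 had promoter partners in both cell types. Of its 2 mESC partner symbols, 1 occurs in the GM12878 list, so the comparison could hardly have found a shared partner. Of the 31 partner symbols of the mESC Sox promoters, 14 occur in the GM12878 list in capitals (51.1% of all symbols in the mESC list do), so the rest could not have been matched. Among the unbaited contacts, SOX9 met a fragment 396 kb downstream at a start of LINC00511, beside 370 and 375 kb for mouse Sox9. SOX17 met a fragment 256 kb away whose nearest gene was MRPL15, and the mouse Sox17 region of 269 to 284 kb likewise had Mrpl15 as its nearest gene. Whether these fragments are orthologous was not tested.

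CG content was compared because it was used neither in the choice of genes nor in the calls. In the window from 250 bases before to 50 after the start, the 9 annotated mouse genes held 7 (Sox10) to 22 CG dinucleotides (Sox14 and Sox21), with a median of 15. Over 22206 protein-coding genes the median was 12 (interquartile range 3 to 23) and the 9 windows lay within that range. For genes in general the start was the annotated one farthest upstream. For Sox genes with a listed fragment it was the one farthest upstream within that fragment, so the windows were not all placed alike. Over the whole HindIII fragment the picture differed. The 7 Sox fragments held 28.8 (Sox6) to 57.7 (Sox14) CG per kb, median 39.7, beside a median of 16.9 and an upper quartile of 26.1 in all baited fragments, and all 7 lay above that quartile. Of all baited fragments, 3.19% had as high a density as that of Sox14. Among their partners, the 6 developmental fragments had a median of 60.5 CG per kb and the other 25 a median of 26.6, with overlapping ranges. Foxl2 reached 78.6 and Zic2 73.3, whereas Tcfap2b had 27.7 and Tcfap2d 6.41. The density was not computed for developmental promoters in general, so no trait particular to the Sox fragments or their partners can be read from it. Short fragments weigh the promoter more heavily in this measure, and the Sox fragments were 2.08 to 11.7 kb long.

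**Figure D5:**
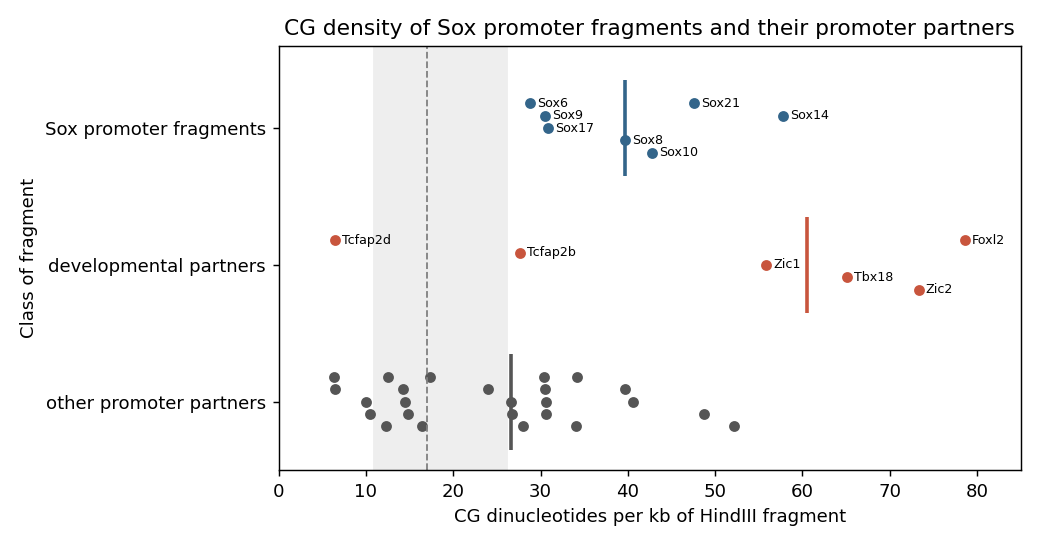
CG dinucleotides per kb of HindIII fragment (x axis) for the 7 Sox promoter fragments, their 6 developmental and their 25 other promoter partners in mESCs (rows, points spread vertically for legibility). Coloured bars are medians, the dashed line is the median of all baited fragments (16.9) and the grey band their interquartile range (10.9 to 26.1). All 7 Sox fragments lie above the band.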

How the data were processed

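The authors mapped the CHi-C read pairs to mm9 or hg19 with HiCUP (Bowtie 1.1.0 per the submitters' processing notes), pooled the replicates of each cell type and called interactions with CHiCAGO. The deposited score of a call is a soft-thresholded negative log of a weighted p-value. The deposited read number, also a score here since it is a rounded, weighted mean, is not a raw count. For Hi-C the authors deposited, from HOMER 4.7, the count of read pairs per bin pair, the expected signal and an FDR, which is an adjusted p-value; bin pairs with an FDR under 0.05 were kept.

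Each call was read as a bait line and an other-end line. Symbols were split at bars, commas and semicolons and stripped of transcript suffixes, because mouse and human lists differ in this. Fragments with gaps of at most 20 kb formed a region. Shares have Wilson intervals (scipy 1.17.1, Python 3.11.15). Counts at all baited fragments were taken at either end, as for the Sox genes. All 86 mouse and 20 human fragments of Sox calls were bounded by AAGCTT in the reference of the same build. Starts, exons and introns came from that build's annotation. The scripts were tested on simulated data. Captured read pairs per replicate are stated by the study but are not part of the processed files, and the number of calls sets the precision of the shares. The genes named are, per Sox gene, the 5 highest-scoring promoter partners, all developmental partners, the 2 highest unbaited ends, the call on most reads and the longest call, with further partners for completeness. The members and lists were chosen with earlier results of these data known. A result on an item withheld from the text is not reported here.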

Additional observations from a re-analysis of the deposited data

How the results depend on the processing

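No paired analysis was possible because the deposited calls pool the replicates, and for the same reason no replicate could be left out. Of 90 recomputed values, 77 stayed within the limits set for them and 13 moved. At a score of at least 10, 1 Sox call was left in GM12878 and 21 in mESCs, the latter in 12 regions. The mESC calls had a promoter-partner share of 71.4%, a developmental share of 50% (4 of 8) and a median distance of 1115 kb. Their Hi-C share was 57.1% of pairs. These values were not computed for all baited fragments at that score, so they have no background beside them. With Sox promoters as baits only, the promoter-partner share was 26.2%. The developmental share was then 23.5% (4 of 17) beside 12.9%, which was counted as within its limits. Counting every listed Hi-C bin pair raised the Hi-C share from 24.1% to 50.6%. Without Sox14 the developmental share was 3.70%. In GM12878, 7 calls were left without SOX10 and 3 on fragments that carry no other symbol. Of all protein-coding genes, 43.6% had at least the Sox median of CG dinucleotides in the window. Of all baited fragments, 9.54% had at least the Sox median density per kb, which is another measure over another set. Genes with no call cannot change a value when left out. Counting older symbols of the Tfap2 genes was chosen after seeing the data.

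With single-digit reads behind most calls over 1 Mb and no replicate values, the read counts of single calls have no error here. Calls at neighbouring fragments are not independent.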
